A study of Gallus gallus with 16 samples.

Results

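Among 7200 spots of a chicken neuroendocrine cDNA microarray, 123 had a signal that was highest in the pituitary gland of embryonic day 10 and whose largest difference between neighbouring ages lay between day 10 and day 12. These probes were chosen from the measured values. A probe had to hold 3 or more values at every age, which 7103 rows did, its mean had to be at least 0.45 lower at day 17 than at day 10, and the E10 to E12 step had to be the largest of the 3 steps. The 123 probes are therefore 123 of 404 that met the first threshold. Another 97 had their largest step between E12 and E14, and 184 had it between E14 and E17.

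The samples were pools of whole pituitary glands from chicken embryos of 4 ages, embryonic day 10 (E10), 12 (E12), 14 (E14) and 17 (E17), and each age had 4 replicate pools. A pool was made of the glands of 16 (E10), 8 (E12), 4 (E14) or 2 (E17) embryos, so the number of animals behind a value differed with age. No treatment or genotype is named, and the labels do not say whether pools shared a hatch, so p-values refer to these pools only. The spread behind them is that between arrays of the same age, each array holding its own pool. It takes in differences between pools, amplification and labelling together, and the fit takes it as equal at all ages. RNA of each pool (500 ng) was amplified, labelled with Cy3 and hybridised with a Cy5-labelled mixture of all 16 samples, to which each gave 2 µg.

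The anterior pituitary forms from Rathke's pouch, whose dividing progenitor cells give rise to the hormone-producing cell types. Thyrotrophs make thyrotropin, somatotrophs make growth hormone and lactotrophs make prolactin, and in the chick embryo the last of these become abundant late in incubation. Transcripts that decline over such a period can belong to progenitors, to proliferating cells, to connective tissue or to cells that become a smaller share of the gland. In RNA of whole glands, fewer cells of a type and less RNA per cell cannot be told apart. Which genes the 123 probes measure was not determined here. The platform annotation used here gives a gene for 54 of 7200 rows, all of them STUB1, so probes are called by their row number, no marker gene of any cell type could be examined, and no sequence is shown.

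Values are the authors' deposited log ratios, read as log2 of sample over reference mixture. A value of 0 need not mark a probe's level in the mixture, as arrays were centred and the samples always carried Cy3. In 6 of the 123 probes even the E10 mean, the highest of the 4 ages, was below 0. Every array had been brought to a mean between -0.0065 and 0.0025 and to an SD between 0.2612 and 0.2614, and a difference is one of scaled log ratios and not a fold change. Base and direction are not stated. The mean of the linear ratio over ages was computed for 56 probes with a variance between age means above 0.5. An equal mixture should hold this mean constant before scaling. It had an SD of 0.102 on the log2 scale as deposited and 0.33 with the sign turned. The SD was 0.156 for natural logarithms and 0.67 for base 10. Some arrays of opposite ages correlated below 0 (lowest r = -0.369 across probes, between an E17 and an E10 array), as arrays set against a mixture of all ages can. Such correlations do not depend on the sign of the ratios. The direction of sample over mixture was kept for the smaller SD it gave, and remains an inference. Scaling a log ratio acts like a change of its base, so these SDs cannot settle the base, and log2 is an assumed reading. Between 7023 and 7194 rows held a value on each array. The number of arrays limits the precision, with a median standard error of 0.12 for a difference between 2 ages. On 4 arrays, replicates 3 and 4 of E12 and of E14, 39 to 45 of the first 45 rows were blank, against at most 1 on the others. A second structure was a correlation of 0.597 across probes between E12 replicate 1 and E14 replicate 1, which was above every pair of arrays within E12 (up to 0.427) or within E14 (up to 0.339).

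Averaged over the 123 probes, the signal stood at 0.28 ± 0.05 at E10, then at -0.04 ± 0.09 at E12, -0.16 ± 0.07 at E14 and -0.32 ± 0.04 at E17 (SD over 4 arrays). The E10 arrays lay at 0.309, 0.207, 0.269 and 0.315, the E12 arrays at -0.147, -0.057, 0.068 and -0.033, the E14 arrays at -0.254, -0.085, -0.187 and -0.124, and the E17 arrays at -0.332, -0.344, -0.261 and -0.353 (replicates 1 to 4). All E12 arrays lay below all E10 arrays, E12 and E14 arrays overlapped, and all E17 arrays lay below all E14 arrays. These separations describe values that the choice of probes fixed, and they carry no test. The mean step was -0.32 between E12 and E10, -0.12 between E14 and E12 and -0.16 between E17 and E14.

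**Figure D1:**
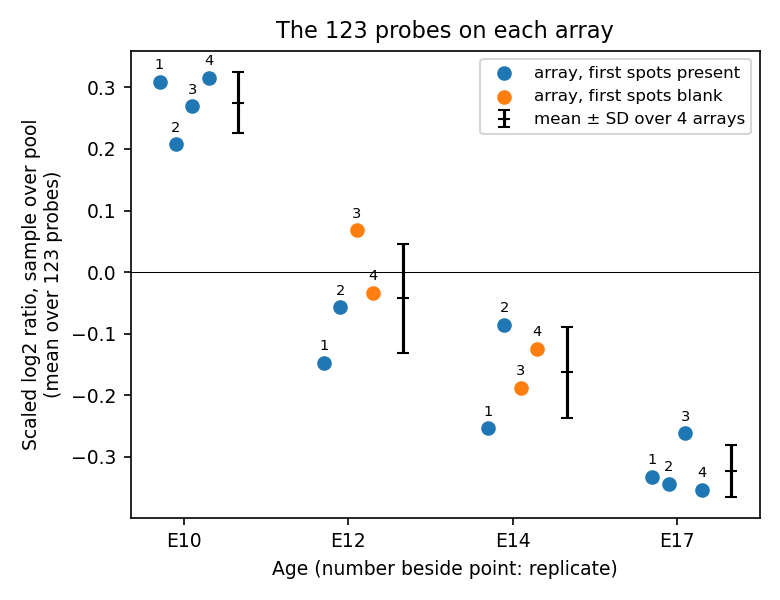
Mean scaled log2 ratio (vertical axis) over the 123 probes on each of the 16 arrays, by age (horizontal axis), with replicate numbers beside the points, arrays with blank first spots in orange, and the mean ± SD of 4 arrays beside each age. E10 arrays lie between 0.207 and 0.315, and E12 replicate 3 is the only array of a later age above 0.

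The 123 probes did not share one level or one later course. Their means ran from -0.19 to 0.98 at E10, with 117 above 0, from -0.48 to 0.22 at E12, with 59 above 0, from -0.69 to 0.43 at E14, with 11 above 0, and from -0.83 to 0.09 at E17, with 1 above 0. The mean of 103 probes was lower at each age than at the age before. In 13 the E14 mean was above the E12 mean, in 8 the E17 mean was above the E14 mean, and 1 probe did both. The lowest mean lay at E17 for 114 probes, at E14 for 7 and at E12 for 2.

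**Figure D2:**
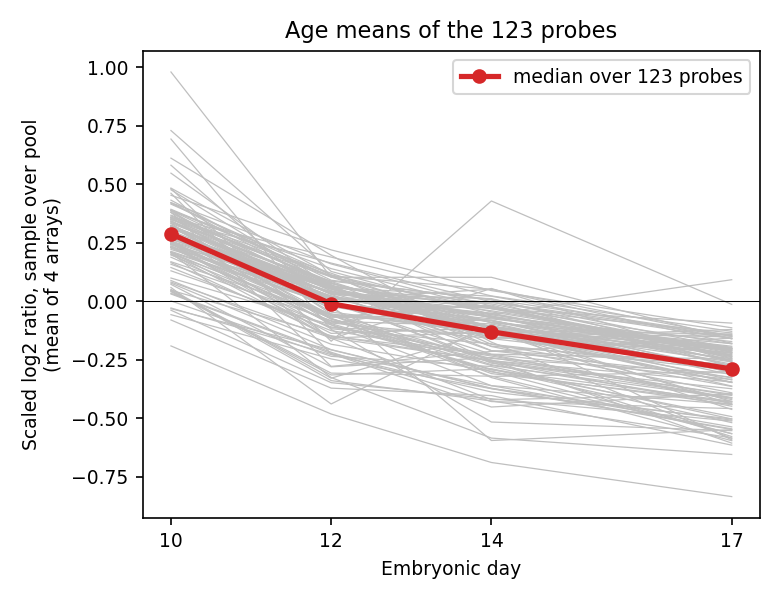
Age means of each of the 123 probes (grey lines, mean of up to 4 arrays, scaled log2 ratio) against embryonic day, with the median over probes in red. The median probe lies at 0.29 at E10, then -0.01 at E12, -0.13 at E14 and -0.29 at E17.

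The total difference between E10 and E17 means ran from 0.451 to 1.25, with a median of 0.539, and 40 probes were below 0.5. The 2 probes just inside the threshold had 0.451 and 0.453, and the 2 just outside it 0.4498 and 0.4485. The first step alone ran from 0.167 to 0.877, with a median of 0.288, while the median over all 7103 probes was 0.006. It made up 34.5 to 132% of the total, with a median of 49.5%, and exceeded 50% in 57 probes. The last interval is 3 days long and the first 2. Per day, the mean steps came to 0.159 between E10 and E12, 0.060 between E12 and E14 and 0.053 between E14 and E17. The first rate had to be the largest in all 123 probes, since the rule made the first step the largest and no interval is shorter. The lead of the first step over the next largest was small in most probes: its median was 0.083, and in 87 of 123 it was below 0.12, the median standard error of a difference. That standard error is for a difference between 2 ages. The lead is a difference between 2 steps, so its own standard error is larger, and it was not computed.

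Differences were tested for all 7103 probes with limma, a linear model with moderated variances, with Benjamini-Hochberg adjustment and a threshold of 0.05. Because the rule for the 123 probes used the same age means, the counts that follow only describe them, as do p-values of single probes for differences between ages. Any difference among the ages passed for 86 of the 123, where 12.7% of all probes passed. For E17 against E10, 110 of the 123 fell, where 10.2% of all probes were called lower. For E12 against E10, the step by which they were chosen, 2 of the 123 fell, where 0.0985% of all probes were called lower. At an unadjusted limma p under 0.05 the count was 84, where 4.7% of all probes were lower. The E12 arrays with a value (3 or 4) lay below those of E10 without overlap in 52 of the 123, where 3.82% of all probes did so. The E17 arrays with a value lay below those of E10 in 109, where 15.7% did.

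After E12, limma's fit of all 16 arrays with age alone called none of the 123. The count was 0 for E14 against E12 and 0 for E17 against E14, where 0.0985% and 0.718% of all probes were called lower. At an unadjusted limma p under 0.05, 14 probes were lower at E14 than at E12, where 4.41% of all probes were, and 19 were lower at E17 than at E14, where 6.84% were. By that measure 0 were higher at E14 (5.72% of all probes) and 0 were higher at E17 (4.69%). Without overlap between arrays, 11 of the 123 lay lower at E14 than at E12 (1.89% of all probes) and 13 lower at E17 than at E14 (3.58%). With the replicate number as a block in the fit, the limma count for E17 against E14 was above 0, as given in the last section.

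The 2 probes that passed for E12 against E10 were probes 693 and 716, named here after their values were seen. Probe 693 had -0.429, -0.167, -0.167 and -0.133 at E12, against 0.553, 0.526, 0.254 and 0.514 at E10. The ages did not overlap, and the difference was -0.69 (SE 0.11, limma adjusted p = 0.00913). Most of its decline lay in this step: it stood at -0.45 ± 0.13 at E14 and -0.39 ± 0.19 at E17 (SD, n = 4), so that the first step was 80.1% of the total. At E17 its mean was 0.06 above that at E14 (limma adjusted p = 0.875), which made it one of the 2 members with the highest E17 minus E14 difference.

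Probe 716 had -0.09, -0.16, 0.13 and -0.10 at E12, against 0.40, 0.28, 0.42 and 0.45 at E10, again without overlap. The difference was -0.44 (SE 0.09, limma adjusted p = 0.0422). It stood at -0.25 ± 0.05 at E14 and -0.61 ± 0.15 at E17 (SD, n = 4), so that the first step was 44.5% of the total. Both probes lost the call without the 4 arrays whose first spots were blank, when E12 kept 2 arrays (limma adjusted p = 0.142 for probe 693 and 0.18 for probe 716), while their differences, -0.76 and -0.51, were no smaller. With 1 array left out at a time, probe 693 passed in 13 of 16 fits, missing the threshold without E10 replicate 1, E10 replicate 2 or E12 replicate 2 (limma adjusted p = 0.0539, 0.0539 and 0.0569). Probe 716 passed in 5 of 16, those without E12 replicate 3, E17 replicate 3 or E14 replicates 1, 2 or 3, with limma adjusted p up to 0.182 in the others.

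The probe that fell most between E10 and E17 was probe 5819, which also had one of the 2 largest first steps. Both this probe and the next were picked for that fall, which the rule required, so their p-values for it are no test. Probe 5819 had -0.724, -0.625, -0.138 and -0.723 at E17, against 0.698, 0.897, 0.699 and 0.479 at E10, a difference of -1.25 (SE 0.18, limma adjusted p = 6.91e-05). At E12 it spread from -0.588 to 0.321 over the 4 arrays, all below the lowest E10 array. The step of -0.81 between E12 and E10 did not pass (limma adjusted p = 0.0629; it passed under 7 of 28 alternatives, with p between 0.019 and 0.216), nor did that of -0.40 between E14 and E12 (limma adjusted p = 0.474).

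Probe 4763 was the next by its difference between E17 and E10. It had -0.637, -0.520, -0.382 and -0.804 at E17, against 0.693, 0.318, 0.663 and 0.772 at E10, a difference of -1.20 (SE 0.12, limma adjusted p = 2.21e-06). Its decline was close to even: the steps were -0.42, -0.37 and -0.41 in order of age. It belonged to the 123 by a lead of 0.004 of the first step over the last, and left the group without any 1 of 9 of the 16 arrays.

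**Figure D3:**
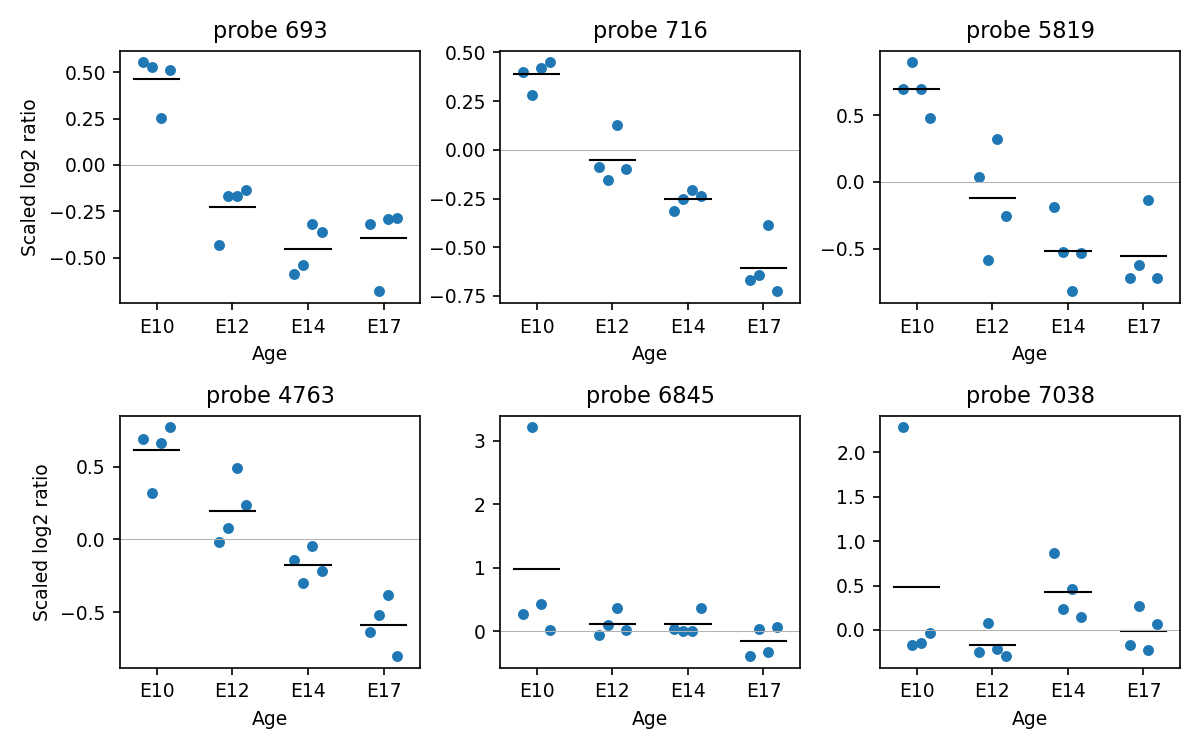
Scaled log2 ratio of 6 of the 123 probes on each array (points, replicates 1 to 4 from left to right) by age, with the age mean as a bar. The 4 E12 points lie below the 4 E10 points in probes 693, 716 and 5819, whereas the E10 means of probes 6845 and 7038 are raised by 1 array each.

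Some of the largest first steps rested on a single array. Probe 6845 had the largest, -0.88 (SE 0.45, limma adjusted p = 0.572). It read -0.063, 0.096, 0.366 and 0.012 at E12, against 0.270, 3.21, 0.418 and 0.019 at E10, and without E10 replicate 2 the difference was -0.13. In 5 of the 123 probes, 1 E10 array lay more than 1 above the next highest, and 4 of these were among the 8 probes with a first step of at least 0.5. For E17 against E10 limma called 0 of the 5 by adjusted p, where 10.2% of all probes were called lower. At an unadjusted limma p under 0.05, 2 of the 5 were lower, and no share of all probes is given for that threshold. Their differences between E12 and E10 medians ran from -0.36 to -0.03. Leaving these 5 out changed the mean first step of the remaining 118 little, to -0.30.

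Probe 7038 also read high on 1 E10 array: it had 2.28, -0.170, -0.146 and -0.039 at E10. Its later values were -0.252, 0.077, -0.210 and -0.297 at E12, 0.866, 0.238, 0.464 and 0.146 at E14, and -0.165, 0.273, -0.223 and 0.062 at E17. It had the highest E14 minus E12 difference of the 123, 0.60 (SE 0.38, limma adjusted p = 0.633), with all E14 arrays above all E12 arrays, and one of the 2 lowest E17 minus E14 differences, -0.44 (limma adjusted p = 0.692). With age medians in place of means its highest age was E14, at 0.35.

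Probe 2678 was a further case, with 2.37 on E10 replicate 1 and 0.093 to 0.328 on the other E10 arrays. At E17 it read 0.211, -0.040, 0.124 and 0.075, against 0.077, -0.306, 0.072 and -0.066 at E14. That difference of 0.15 (SE 0.33, limma adjusted p = 0.899) was the highest E17 minus E14 difference among the 123, and the ages overlapped.

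Probe 1609 had the second highest E14 minus E12 difference, 0.34 (SE 0.22, limma adjusted p = 0.648), and the lowest E17 minus E14 difference, -0.49 (SE 0.22, limma adjusted p = 0.406). Both turned on E14 replicate 3, at 0.861, where the other E14 arrays read -0.515 to -0.310. Without that array the differences were 0.02 and -0.17.

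Probe 2747 had the lowest E14 minus E12 difference, -0.58 (SE 0.22, limma adjusted p = 0.312). It read -0.543, -0.728, -0.064 and -1.04 at E14, against 0.018, -0.226, 0.086 and 0.053 at E12, and E14 replicate 3 overlapped the E12 arrays. Its first step was of the same size, -0.60 (limma adjusted p = 0.324), and at E17 it spread from -0.971 to 0.209.

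One of the 123, probe 5578, carries the annotation STUB1, the gene of an E3 ubiquitin ligase that binds chaperones. It had 0.108, 0.024, 0.355 and 0.152 at E12, against 0.471, 0.249, 0.542 and 0.424 at E10, a difference of -0.26 (SE 0.09, limma adjusted p = 0.287), and was 0.70 lower at E17 than at E10 (SE 0.09, limma adjusted p = 2.15e-05). The 54 rows with this annotation did not behave as copies of one probe. Their median pairwise correlation over the 16 arrays was -0.006, and the other 53 differed between E12 and E10 by -0.53 to 0.53, with a median of -0.05. The values of probe 5578 are given for that spot and not for the gene.

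Whether the early step holds in arrays that did not choose the probes was examined by leaving out each array in turn, choosing probes by the same rule on the other 15 and reading them on the array left out. The lists so chosen held 81 to 166 probes. Each array was read over its own list, so the differences between ages below compare means over partly different probes. On left-out arrays the means were 0.17 ± 0.02 at E10, then 0.02 ± 0.08 at E12, -0.14 ± 0.06 at E14 and -0.29 ± 0.06 at E17 (SD over 4 arrays). On the arrays that took part in the choice they were 0.30, -0.06, -0.16 and -0.32. The E12 minus E10 difference was thus -0.14 on left-out arrays, 40.3% of the -0.35 on arrays used. The next steps were -0.16 for E14 against E12 and -0.15 for E17 against E14 on left-out arrays, against -0.10 and -0.16 on arrays used.

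The decline as a whole was seen on left-out arrays, where it was -0.45 between E17 and E10. The 3 steps were of nearly equal size there as means over arrays, but not within single replicate numbers left out, as given below. The left-out E12 arrays read -0.079, 0.005, 0.113 and 0.056 in order of replicate, and the left-out E10 arrays 0.190, 0.136, 0.162 and 0.176, so the ages did not overlap. Left-out E14 arrays read -0.221 to -0.074, which overlapped the E12 arrays by replicate 1 of E12. The E17 arrays, at -0.334 to -0.202, overlapped E14 by replicate 1 of E14.

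**Figure D4:**
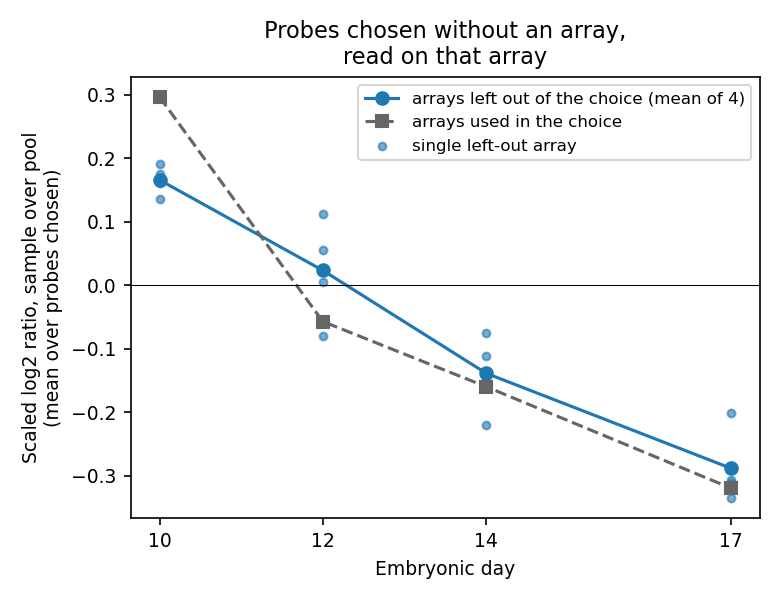
Mean scaled log2 ratio over probes chosen by the rule on 15 arrays, against embryonic day: read on the array left out (blue, small points for single arrays, line for the mean of 4) and on the arrays used for the choice at that age (grey squares, dashed). The dashed line drops by 0.35 between E10 and E12 and the blue line by 0.14. Each left-out array has its own list of probes, so neither line follows a fixed set.

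The same was done with all 4 arrays of 1 replicate number left out, an alternative added after the data were seen. Chosen on the other 12 arrays, 84, 152, 171 and 114 probes met the rule without replicates 1, 2, 3 and 4. Read on the replicate left out, their E12 minus E10 difference was -0.24, -0.13, -0.11 and -0.16, where the arrays used gave -0.35 to -0.37. Their E14 minus E12 difference there was -0.11, -0.04, -0.21 and -0.16, and their E17 minus E14 difference -0.09, -0.24, -0.07 and -0.24. In the left-out replicate, 82.1, 73.7, 81.8 and 74.1% of these probes were lower at E12 than at E10, where 50.5 to 52.9% of all probes were. Lists chosen in the same way for a largest step between E12 and E14 gave 92.8, 77.9, 78.8 and 61.8%. Those for a largest step between E14 and E17 gave 89, 55.5, 69.3 and 65.5%. Between E17 and E10, 86.9, 92.1, 92.4 and 92.9% of the probes chosen for the first step were lower at E17, where 51.8 to 55.9% of all probes were. The share was higher in the lists chosen for a later step. It was 96.4, 100, 98.5 and 95.5% for E12 to E14, and 95.5, 96.5, 94.1 and 94.6% for E14 to E17.

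The first step was again the largest of the 3 for 52.4% of the probes in replicate 1 (33.9% of all probes). In the other replicates it was the largest for 23.0% in replicate 2 (27.4% of all probes), 12.9% in replicate 3 (28.9%) and 28.6% in replicate 4 (33.8%). Only in replicate 1 was this share above that of all probes. E12 replicate 1 was also the lowest E12 array over the 123 probes, and lay 0.104 below the age mean. It lay 0.144 below it in the 97 probes with the largest step between E12 and E14 and 0.129 below it in the 184 with the largest step between E14 and E17.

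The first step on left-out arrays was -0.142 in lists chosen for a largest step between E10 and E12. It was -0.196 in lists chosen for a largest step between E12 and E14, and -0.137 in lists chosen for one between E14 and E17. These 3 values were not tested against each other, since the lists share arrays. With replicates 1 to 4 left out, lists chosen for the first step gave -0.24, -0.13, -0.11 and -0.16. Lists chosen for E12 to E14 gave -0.30, -0.16, -0.11 and -0.05, and those for E14 to E17 -0.30, -0.04, -0.10 and -0.11. In all 3 kinds of list the step that served for the choice was smaller on left-out arrays: -0.14 against -0.35, -0.16 against -0.36, and -0.23 against -0.42.

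**Figure D5:**
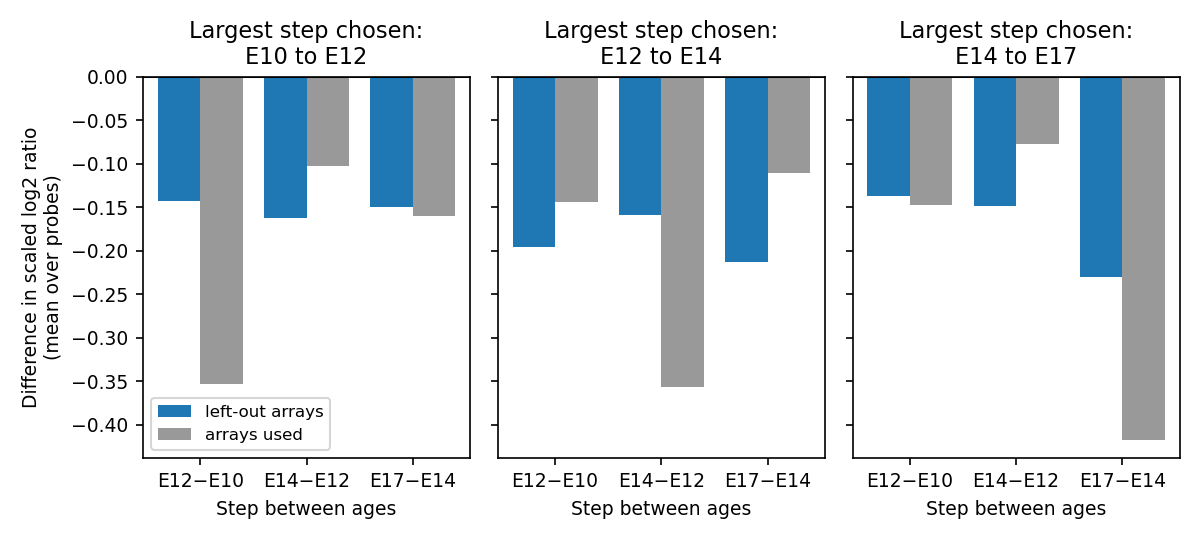
Difference between neighbouring ages in scaled log2 ratio, averaged over probes, for lists chosen by a largest step between E10 and E12, E12 and E14, or E14 and E17; blue bars are arrays left out of the choice and grey bars arrays used in it. In each panel the grey bar of the chosen step is the longest, at -0.35, -0.36 and -0.42, and the blue bar beside it reads -0.14, -0.16 and -0.23. Each left-out array has its own list of probes.

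Membership of single probes depended on single arrays. Of the 123 probes, 30 met the rule whichever of the 16 arrays was left out, 18 left the group without 1 particular array, and 35 left it without any of 5 or more arrays. E12 replicate 1 mattered most: without it 46 of the 123 left, against 8 without E12 replicate 3, and the rule found 81 probes in all. With age medians in place of means 83 of the 123 met the rule. The 30 probes that met it throughout include probes 693, 716 and 5819 and averaged 0.32 at E10, then -0.05 at E12, -0.19 at E14 and -0.35 at E17. All 30 passed for E17 against E10 (10.2% of all probes) and 28 passed for any age (12.7% of all probes), but since they were picked for steady values, no test is read from this.

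Within an age, the 123 probes were about as variable as other probes. The median SD over 4 arrays was 0.124 at E10, then 0.149 at E12, 0.175 at E14 and 0.125 at E17, against 0.113, 0.165, 0.186 and 0.136 over all probes. Array structures that the rule did not name were tested in the same way. The arrays compared also gave the age means behind the choice, so these counts, too, only describe the 123. For the arrays with blank first spots, limma called 0 of the 123 and 0% of all probes. At an unadjusted limma p under 0.05, 13 of the 123 were higher on them (3.96% of all probes) and 0 were lower (4.35% of all probes). At E12 these arrays averaged 0.02 over the 123 probes, the others -0.10, and E10 0.28, so that E12 lay below E10 by 0.26 on the arrays with blank spots and by 0.38 on the others. Between E14 and E12 the difference was -0.17 within the arrays with blank spots and -0.07 within the others. For odd against even replicate numbers limma also called 0 of the 123 and 0% of all probes, and at an unadjusted limma p under 0.05 it called 24 (18.8% of all probes). With a term for the blank spots the count for E12 against E10 was 1 (2 without it), and with a term for odd or even numbers it was 5, and 2 for E17 against E14 (0 without it). Shares of all probes called for age with these terms were not computed. These changes in count therefore cannot be read as particular to the 123.

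The 123 probes were spread over the table. In each sixteenth of its rows there were 4 to 11 of them, and 2 pairs were neighbouring rows. A value was present on every array for 119.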

How the data were processed

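Pituitary RNA of 16 pools of chicken embryos, 4 at each of 4 ages, was measured on 2-colour cDNA arrays against 1 reference mixture, per the labels' protocols. The authors deposited 1 log ratio per spot and array, read here as log2. How they quantified, corrected, normalized and filtered spots is not stated in those sources. No scanner intensities were analysed here. Deposited values were used unchanged. Rows with 3 or more values at every age were fitted by lmFit and eBayes of limma 3.58.1 (R 4.3.3), with a mean per age and all 16 arrays, with Benjamini-Hochberg adjustment over 7103 rows at 0.05. The fit and the readings with 1 replicate number left out were run on simulated data with independent normal noise on each array. The outcomes are not given here, and no result above rests on them. Readings with single arrays left out were not simulated. Some of the measured arrays correlated across ages, and the simulation does not cover that. The rule for the probes and all lists and tests were chosen with earlier results of these data known. Named probes are the 2 with the lowest and, after E12, the 2 with the highest difference in each comparison, and those with a gene symbol; probe 716 was added because it passed the test. Gene lists could not be used, since the annotation names STUB1 alone. Alternatives covered scaling, filters, array weights, moderation, replicate block, array structures and arrays left out.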

Additional observations from a re-analysis of the deposited data

Results flagged for a closer look

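Of 48 groups of 4 arrays examined, 9 held an array that stood apart from the remaining 3. Chance marks about 1 in 20 groups, but most of these probes were named for extreme differences between age means, which single far-off arrays can produce, so that share is no measure for this count. At E10, 3 of them were very high single readings: probe 6845 at 3.21 on replicate 2 (others 0.019 to 0.418), probe 7038 at 2.28 on replicate 1 (others -0.170 to -0.039) and probe 2678 at 2.37 on replicate 1 (others 0.093 to 0.328). Probe 693 stood apart at 3 ages, with 0.254 on E10 replicate 3 (others 0.514 to 0.553), -0.429 on E12 replicate 1 (others -0.167 to -0.133) and -0.682 on E17 replicate 2 (others -0.316 to -0.287). Probe 1609 was at 0.861 on E14 replicate 3 (others -0.515 to -0.310) and probe 6845 at 0.369 on E14 replicate 4 (others 0.005 to 0.032). Probe 5819 was at -0.138 on E17 replicate 3 (others -0.724 to -0.625).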

How the results depend on the processing

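Counts of calls in this section are over the 123 probes, and shares of all probes were computed for the main fits only. Whether a changed count is particular to the 123 therefore cannot be read from it. For E12 against E10, limma called 2 of the 123 probes, where 0.0985% of all probes were called lower. Subtracting each array's median, quantile normalization, the fit without moderation and a term for arrays with blank first spots each gave 1, as did leaving out the first replicates of E12 and E14 together (added after seeing the data). Leaving out the 4 arrays with blank spots gave 0, a term for odd or even numbers 5, and single arrays left out 0 (E10 replicates 1 or 2, E12 replicate 2) to 4 (E12 or E17 replicate 3), with 1 without E10 replicates 3 or 4, E12 replicates 1 or 4, E14 replicate 4 or E17 replicates 1, 2 or 4. For E17 against E14 (0), quantile normalization and the fit without moderation gave 1, the odd or even term 2, and single arrays left out 0 to 1 (E12 or E17 replicate 3). Single arrays left out gave 96 to 113 for E17 against E10 (110), 64 to 91 for any age (86), 0 for E14 against E12 and for blank spots, and 0 to 1 for odd against even numbers. With the replicate number as a block, 5 passed for E12 against E10 and 2 for E17 against E14. The labels name nothing shared by number, so the main fit did not take the numbers as pairs. Deviations of same-numbered arrays of different ages correlated at -0.083 to 0.437 (over 0.1 in 13 of 24 pairs). Their median was 0.127, against -0.045 for arrays of different numbers. Of the 16 arrays, 11 correlated best with their own number. Same-numbered arrays were thus more alike, which the main fit leaves out. What they share was not tested. The rule found 92 probes with each array's median subtracted, 142 after quantile normalization, 172 without the 4 arrays with blank spots, and 166 or 83 with a threshold of 0.4 or 0.5. It found 81 to 171 probes with 1 array or 1 replicate number left out, and 68 without the first replicates of E12 and E14, where fewer arrays entered. The mean E12 minus E10 difference was -0.35 to -0.28 and the mean E17 minus E12 difference -0.31 to -0.24 with 1 array left out. On arrays that took no part in the choice, the first was -0.14, and by replicate number -0.24, -0.13, -0.11 and -0.16. The spread of the 123 probes over that of all probes was 0.97 to 1.02 times with 1 array left out. Probe 5819 passed for E12 against E10 under 7 of 28 alternatives, probe 693 under 24 and probe 716 under 10; probe 1609 changed sign for E14 against E12 in 1, without passing. Every other count stayed within 1.5 times its value under the alternatives tried. No other named difference changed sign or side of the threshold.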
